A study of Mus musculus with 6 samples.

Results

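The cytosolic ribosomal protein genes were chosen by name and not by their differences between the genotypes, though with earlier results of these data known. They comprised every gene with a coding row whose symbol is Rpl or Rps followed by a number and an optional a, l or x, together with Rplp0, Rplp1, Rplp2 and Rpsa. Rps6k kinases and symbols marked as pseudogenes were left out. This gave 80 of 24562 genes, of which 30 belong to the small 40S subunit and 50 to the large 60S subunit. The symbols of 82 genes matched, and Rps27 and Rps4l were left out because the row with the highest count, which stands for each gene, is a non-coding transcript. Of the 80 genes, 74 passed the filter on low counts and were tested, 29 of the 40S and 45 of the 60S subunit.

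RNA was sequenced from unstimulated bone marrow-derived macrophages (BMDMs), which are grown from marrow cells in medium containing L929-conditioned medium. The AclyM-KO mice carried floxed alleles of Acly, the gene of ATP citrate lyase, and Cre recombinase expressed from the Lyz2 gene of myeloid cells. The control mice, which the labels call WT, were Cre-negative littermates with the same floxed Acly alleles (Acly fl/fl). Each genotype had 3 libraries, all labelled naive. According to the study's legends, replicates of this kind are technical and the mice were pooled. The p-values below therefore measure the spread between these libraries, which need not be the spread between mice.

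Each ribosome consists of a small subunit, which reads the mRNA, and a large subunit, which forms peptide bonds, and almost every ribosomal protein is needed in a single copy per ribosome. Most mRNAs of these proteins begin with a terminal oligopyrimidine (TOP) tract, through which mTOR complex 1 and the RNA-binding protein LARP1 control their translation, whereas their mRNA levels tend to stay steady. Mammalian genomes hold many processed pseudogenes of ribosomal protein genes, so that short reads of the parent gene can match several loci.

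Total counts over 1 row per gene were between 11120034 and 13598887 in control libraries, 11386212 and 11462221 in AclyM-KO replicates 1 and 3, and 25814853 in AclyM-KO replicate 2. Acly itself had 220, 233 and 236 CPM (counts scaled to library size with edgeR's TMM factors) in control and 93.3, 98.9 and 98.3 CPM in AclyM-KO libraries, so each library matched its label. Macrophage markers were high in all libraries, with a summed level of 21324 to 22242 CPM in control and 12976 to 15431 CPM in AclyM-KO libraries, led by Lyz2, the gene that carries Cre. Summed markers of neutrophils and their precursors lay between 18.5 and 23.4 CPM and those of B cells between 2.40 and 4.41 CPM over all libraries, and those of T cells, erythroid cells, dendritic cells, mast cells and stromal cells reached at most 1.34 CPM. AclyM-KO replicate 2, the deepest library, stood apart from the other AclyM-KO libraries over the whole table. The chi-square of its counts per degree of freedom was 22.04 and 23.5 against AclyM-KO replicates 1 and 3, beside 8.55 between those and 3.25 to 6.79 among control libraries, a measure that grows with depth. The main results that rest on it are given with and without it.

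The log2 fold change between AclyM-KO and control macrophages was smaller than 0.25 in either direction in 68 of the 74 tested ribosomal protein genes, and in 58 of them without AclyM-KO replicate 2. With all libraries the log2 fold changes (AclyM-KO over control) of the 74 tested genes ran from -0.57 for Rpl21 to 0.30 for Rps27l, with a median of -0.06, beside a median of 0.00 over all 11470 genes tested. By the quasi-likelihood test of edgeR, with p-values adjusted over all genes after Benjamini and Hochberg, 4 ribosomal protein genes fell in AclyM-KO macrophages and 0 rose. Among all genes tested, 5.65% fell and 6.7% rose at the same threshold of 0.05 on the adjusted p. At an unadjusted p under 0.05, edgeR gave 7 lower and 2 higher ribosomal protein genes, beside 13.3% lower and 13.9% higher among all genes tested. DESeq2 gave 4 lower and 0 higher at an adjusted p of 0.05, beside 3.91% lower and 4.5% higher among the genes it tested. The point estimate was below zero in 47 and above zero in 27 of the 74 genes. The 95% confidence interval lay within 0.5 log2 units of zero in 64 of them. The shares of all tested genes within these limits of 0.25 and 0.5 were not counted, so these counts describe the family only. In bulk RNA, fewer cells of a type and less RNA per cell cannot be told apart.

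Rpl13a, which encodes a 60S protein also known for its role in interferon-gamma-controlled translation in myeloid cells, had 326, 308 and 315 CPM in control and 256, 250 and 251 CPM in AclyM-KO libraries. All AclyM-KO libraries lay below all control libraries and close to each other. The log2 fold change was -0.33 (SE 0.06, adjusted p = 0.0053 by edgeR). Of the 4 genes, Rpl13a alone kept its call whichever single library was left out, with adjusted p-values between 1.7e-04 and 0.047.

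Rps9, a 40S protein bound early to the ribosomal RNA, had 337, 342 and 324 CPM in control and 299, 273 and 280 CPM in AclyM-KO libraries. The groups did not overlap. The log2 fold change was -0.23 (SE 0.06, adjusted p = 0.0353 by edgeR).

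Rpl41, which encodes a very short and basic 60S protein, had 72.4, 73.2 and 67.4 CPM in control and 48.0, 54.4 and 63.2 CPM in AclyM-KO libraries. The AclyM-KO libraries were all lower but spread more widely than the control libraries. The log2 fold change was -0.36 (SE 0.10, adjusted p = 0.0314 by edgeR). Rps9 did not pass the threshold without any 1 of the control libraries or without AclyM-KO replicate 3 (adjusted p up to 0.153), nor did Rpl41 without any 1 of the control libraries or without AclyM-KO replicate 1 (up to 0.126).

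Rpl13a (chr7:45125563-45128745, build GRCm38) and Rps9 (chr7:3703954-3706897) lie on chromosome 7, which holds 14 of the 80 genes, and Rpl41 lies at chr10:128548110-128549168. Over the 14 tested genes of chromosome 7 the median log2 fold change was -0.09, and the range was -0.33 to 0.08. Without AclyM-KO replicate 2 the median was -0.15. In the GENCODE M21 annotation, exons of Rpl13a overlap the protein-coding model Gm45713 and the small nucleolar RNA Snord33, both on the same strand. Exons of all annotated transcripts of the gene were pooled for this, so they need not belong to the counted transcript. The study's methods give default settings for the counting and do not spell out how it used strand.

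**Figure D1:**
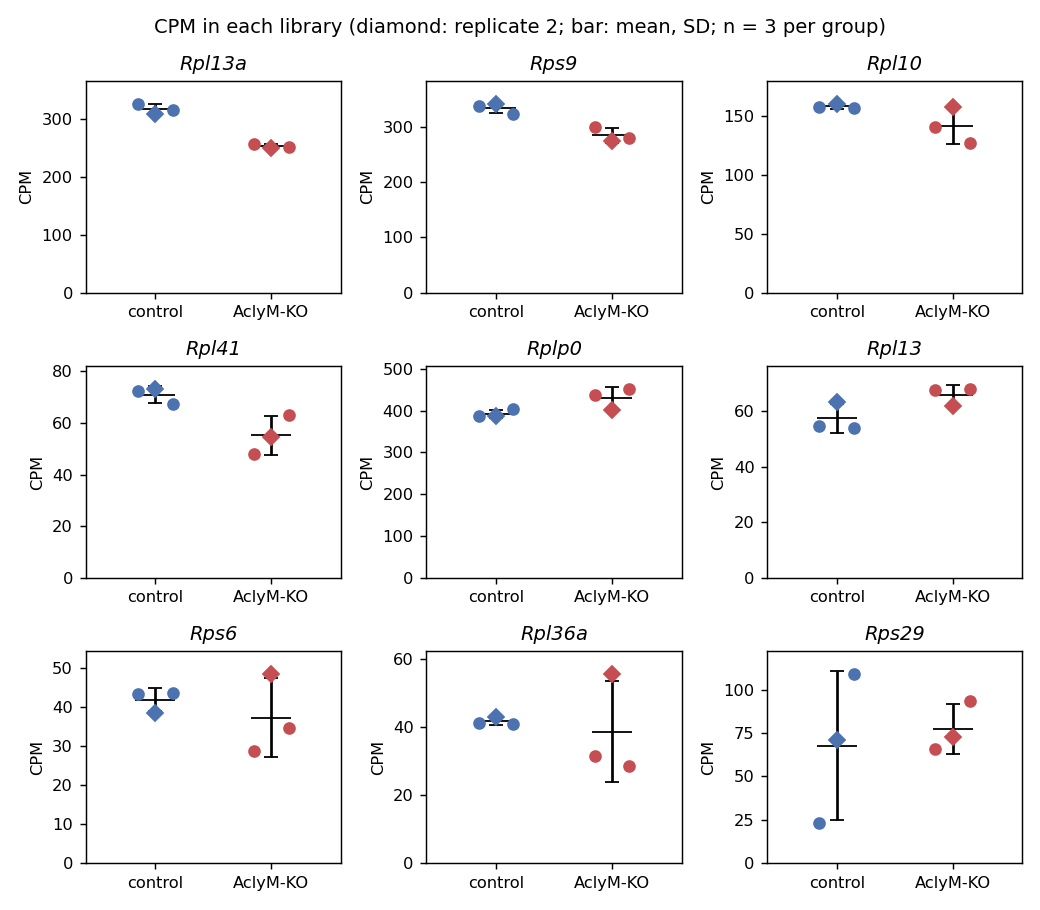
CPM (TMM-scaled, axis from 0) of 9 ribosomal protein genes in each control (blue) and AclyM-KO (red) library. Horizontal bars are means and vertical bars SD (n = 3), and diamonds mark replicate 2 of each group. Rpl13a, Rps9 and Rpl41 are lower in every AclyM-KO library, AclyM-KO replicate 2 of Rps6 and Rpl36a is above all control libraries, and Rps29 varies from 23.3 to 109 CPM among control libraries.

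The letters around the transcription start were compared for the genes with an entry in the RefSeq promoter table of build GRCm38.p6, which held 60 of the 80 genes and 55 of the tested genes. A run of at least 8 pyrimidines (C or T, sense strand) within 25 bases of an annotated start was used as a plain description of a TOP-like start. It was present in 30 of the 55 tested genes (54.5%) and in 2013 of the 8835 tested coding genes with an entry (22.8%). The windows of 30 bases below are shown for the genes on which the results turn, Rpl13a, Rps9 and Rpl41 as genes past the threshold, Rplp0 and Rpl13, which passed the test in the upward direction once AclyM-KO replicate 2 was left out, and, chosen after the values were seen, Rps3 for its high level and Rpl7a for the longest run. The longest pyrimidine run within 25 bases of the start is in capitals.
Rpl13a: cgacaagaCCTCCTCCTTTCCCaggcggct
Rps9: caaccgccttgTCTCTCTTTgtctcgggcc
Rpl41: gacacacgggccggCTCggaagtgacgaca
Rplp0: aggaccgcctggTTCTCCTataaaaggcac
Rpl13: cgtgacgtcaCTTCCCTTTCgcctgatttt
Rps3: cgcggcgtcattgCTCCCgccctatatacc
Rpl7a: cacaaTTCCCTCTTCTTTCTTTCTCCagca

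These windows lie at chr7:45128722-45128751 (minus strand) for Rpl13a, chr7:3704024-3704053 (plus) for Rps9, chr10:128549156-128549185 (minus) for Rpl41, chr5:115559466-115559495 (plus) for Rplp0, chr8:123102324-123102353 (plus) for Rpl13, chr7:99483674-99483703 (minus) for Rps3 and chr2:26910788-26910817 (plus) for Rpl7a. The run had 14 bases in Rpl13a and 9 in Rps9, but 3 in Rpl41, so these genes did not share a long run at the annotated start. The 30 tested genes with a run of at least 8 had a median log2 fold change of -0.05, and the 25 genes with a shorter run had -0.08. Without AclyM-KO replicate 2 these medians were -0.13 and -0.16. Of the 300 bases around each start, the ETS-type motif CCGGAAG, on either strand, was present in 24 of the 55 genes (43.6%) and in 21.8% of the tested coding genes. The genes with this motif had a median log2 fold change of -0.04, and those without it -0.08. When AclyM-KO replicate 2 was left out, the medians were -0.12 with the motif and -0.16 without it. The GC box GGGCGG was present in 61.8% of the tested ribosomal protein genes and 69.6% of tested coding genes, AAGATGG in 14.5% and 8.9%, the E-box CACGTG in 10.9% and 12.2%, and TATAAA in 10.9% and 8.17%. CCGGAAG and AAGATGG can share letters where they overlap. A match describes these letters only and is no evidence of binding.

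Among the 74 genes, AclyM-KO replicate 2 differed from the other AclyM-KO libraries. The median log2 deviation of the 74 genes from the control mean was 0.00, 0.01 and -0.01 in control replicates 1, 2 and 3. It was -0.11 in AclyM-KO replicate 1, -0.15 in replicate 3 and 0.05 in replicate 2. Replicates 1 and 3 thus lay below and replicate 2 above the control libraries. The 40S and the 60S genes had similar values within each library, with medians of -0.07 and -0.11 in replicate 1, 0.05 and 0.04 in replicate 2, and -0.16 and -0.14 in replicate 3. The median deviation over all tested genes was within 0.003 of zero in each library.

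**Figure D2:**
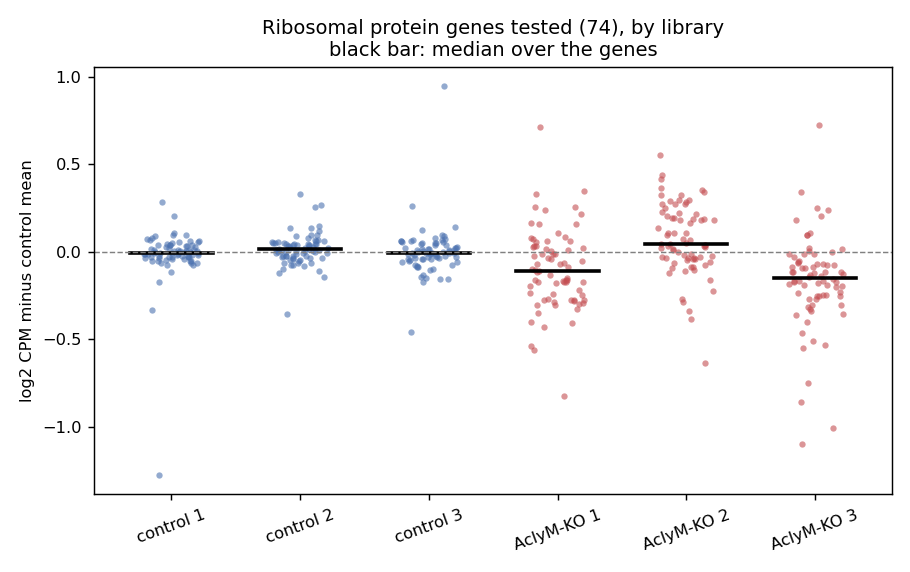
Log2 CPM minus the mean of the control libraries (vertical axis) for the 74 tested ribosomal protein genes, by library. Each dot is a gene and the black bar is the median, which is near 0 in the control libraries (blue), -0.11 and -0.15 in AclyM-KO replicates 1 and 3 and 0.05 in AclyM-KO replicate 2 (red).

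Replicate 2 exceeded both other AclyM-KO libraries in 53 of the 74 ribosomal protein genes (71.6%), beside 41.7% of all genes tested. It was the highest of all 6 libraries in 32 of the 74, beside 28.7% of all genes tested. All 3 AclyM-KO libraries lay below all control libraries in 10 of the 74 genes and above them in 0, beside 16.6% and 16.3% of all genes tested. AclyM-KO replicates 1 and 3 both lay below all control libraries in 38 genes and above them in 3, beside 23.2% and 23% of all genes tested. The ratio of replicate 2 to the mean of replicates 1 and 3 had a median log2 value of 0.18 over the ribosomal protein genes and 0.01 over all genes tested. Across the 74 genes this ratio was lower where the coding sequence had more G and C (Spearman's rho = -0.52, n = 74, a description of genes from the same libraries). In the sample descriptions replicate 2 carries the tag S20 and the other libraries tags from S45 to S62, and the sources used here do not say what this tag stands for.

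Without replicate 2, edgeR placed 26 ribosomal protein genes lower and 2 higher in AclyM-KO macrophages, beside 8.92% lower and 9.56% higher among the 11554 genes then tested. The 26 comprised 12 genes of the 40S and 14 of the 60S subunit and included the 4 genes called with all libraries. The median log2 fold change was then -0.13 and 59 of the 74 estimates were below zero, beside a median of 0.00 over all genes. With limma-voom and sample weights on all 6 libraries, 17 genes were lower and 2 higher, beside 9.39% lower and 9.68% higher among all genes tested, and each of the 17 was among the 26. The proliferation genes also differed between the AclyM-KO libraries. Their median deviation from control was 0.41, 0.81 and 0.49 log2 units in AclyM-KO replicates 1, 2 and 3, above control in each. It was highest in replicate 2, where the ribosomal protein median was also highest. In replicates 1 and 3, however, the ribosomal protein medians lay below control, at -0.11 and -0.15. With replicate 2 thinned at random to 11753905 counts, the median log2 fold change of the ribosomal protein genes was -0.06 and 3 were lower, beside -0.06 and 4 at full depth. The part of sample tag, base composition and proliferation in the difference between the AclyM-KO libraries was not tested.

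**Figure D3:**
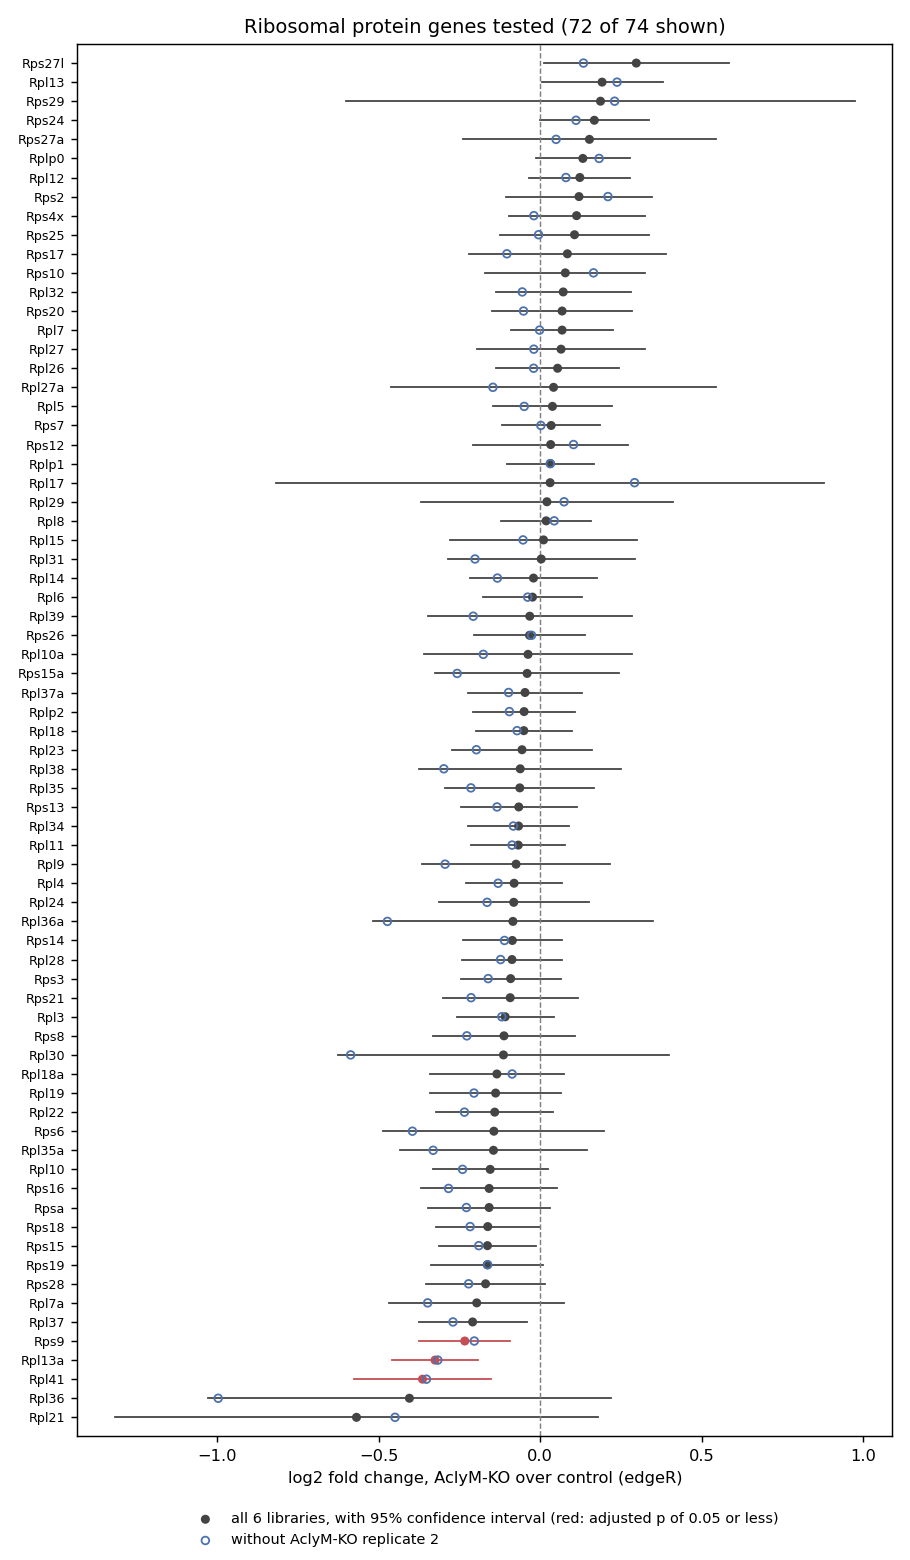
Log2 fold change (AclyM-KO over control) of 72 of the 74 tested ribosomal protein genes with 95% confidence interval from edgeR (filled points), and the estimate without AclyM-KO replicate 2 (open points). Red marks Rpl13a, Rpl41 and Rps9, which are past the threshold, and the open points lie to the left of most filled points, with a median over all 74 genes of -0.13 against -0.06.

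No gene of the ribosomal stalk, the flexible arm that recruits translation factors, passed the test with all libraries. Rplp0, the stalk base and a common reference gene of quantitative PCR, had 388, 387 and 403 CPM in control and 437, 401 and 452 CPM in AclyM-KO libraries. Its AclyM-KO values overlapped the control range only through replicate 2. The log2 fold change was 0.13 (adjusted p = 0.228 by edgeR), and 0.18 (adjusted p = 0.012) without replicate 2. Rplp1 had log2 fold changes of 0.03 in both fits, with groups that overlapped. Rplp2 had -0.05 (adjusted p = 0.710 by edgeR) and, without replicate 2, -0.10 (adjusted p = 0.309), and its groups overlapped only through replicate 2. Rpl13, the other gene that was higher without replicate 2, had 54.7, 63.4 and 54.0 CPM in control and 67.5, 61.7 and 68.0 CPM in AclyM-KO libraries. Its log2 fold change was 0.19 (adjusted p = 0.174 by edgeR) with all libraries. Rpsa, which encodes a 40S protein also known as the laminin receptor, differed by -0.16 on the log2 scale (adjusted p = 0.269 by edgeR), and by -0.23 (adjusted p = 0.0397) without replicate 2.

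Of the X-linked genes, Rpl10 had 158, 161 and 157 CPM in control and 141, 158 and 127 CPM in AclyM-KO libraries, and Rpl36a had 41.1, 43.0 and 40.9 CPM in control and 31.5, 55.5 and 28.4 CPM in AclyM-KO libraries. Both genes had tight control values, with AclyM-KO replicates 1 and 3 below and replicate 2 within or above the control range. With all libraries the log2 fold changes of Rpl10 and Rpl36a were -0.16 and -0.08 (adjusted p of 0.248 and 0.830 by edgeR), and without replicate 2 they were -0.24 and -0.47 (adjusted p of 0.0056 and 5.3e-04). Rpl39 and Rps4x had log2 fold changes of -0.03 and 0.11 (adjusted p of 0.917 and 0.50 by edgeR), and of -0.21 and -0.02 without replicate 2 (adjusted p of 0.214 and 0.849). The median ratio of replicate 2 to the other AclyM-KO libraries over these 4 genes was 0.40 log2 units.

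Rps6, the 40S protein that S6 kinases phosphorylate downstream of mTOR complex 1, had 43.5, 38.5 and 43.8 CPM in control and 28.8, 48.6 and 34.6 CPM in AclyM-KO libraries. The AclyM-KO libraries lay on either side of the control range, and the log2 fold change was -0.14 (SE 0.16, adjusted p = 0.605 by edgeR). Without replicate 2 it was -0.40 (adjusted p = 0.0062). Rpl5, Rpl11 and Rpl26, whose products act on the Mdm2 and p53 pathway when ribosome assembly is disturbed, had log2 fold changes of 0.04, -0.07 and 0.05, with adjusted p-values from 0.561 to 0.822. Without replicate 2 they were -0.05, -0.09 and -0.02, with adjusted p-values from 0.342 to 0.876 by edgeR. Mdm2 itself, a p53 target and inhibitor, rose by 0.36 log2 units (adjusted p = 0.0357 by edgeR), and by 0.23 (adjusted p = 0.00955) without replicate 2. Besides Rplp0 and Rpl13a, Rpl32 and Rps18 are common reference genes of quantitative PCR. Rpl32 had a log2 fold change of 0.07 (95% confidence interval -0.14 to 0.28) and Rps18 of -0.16 (-0.324 to -0.0015, adjusted p = 0.179 by edgeR), which became -0.22 (adjusted p = 0.0199) without AclyM-KO replicate 2. The estimate of Rpl32 was then -0.06 (adjusted p = 0.556 by edgeR). Set against one another, these 4 reference genes ranged from -0.33 to 0.13 with all libraries.

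Some genes varied more within a group than between the groups, and the following were chosen after their values were seen. Rps29 had 23.3, 71.1 and 109 CPM in control and 65.8, 73.0 and 93.5 CPM in AclyM-KO libraries. Control replicate 1 was the lowest and control replicate 3 the highest of all, and the 95% confidence interval of the log2 fold change ran from -0.60 to 0.98. Rpl36 had 11.1, 16.9 and 14.6 CPM in control and 7.83, 16.3 and 6.46 CPM in AclyM-KO libraries, so that AclyM-KO replicates 1 and 3 lay below and replicate 2 within the control range. Without replicate 2 its log2 fold change was -0.997 (adjusted p = 4.9e-04 by edgeR), the lowest of the 74, against -0.41 (adjusted p = 0.399) with it. Rpl30 had 23.6, 26.5 and 26.5 CPM in control and 18.9, 34.6 and 15.1 CPM in AclyM-KO libraries, with replicates 1 and 3 below and replicate 2 above the control range. Without replicate 2 its log2 fold change was -0.59 (adjusted p = 0.00115 by edgeR), against -0.11 (adjusted p = 0.805) with it. Rpl27a had 45.1, 43.7 and 38.7 CPM in control and 53.4, 53.2 and 23.3 CPM in AclyM-KO libraries. Its AclyM-KO replicates 1 and 2 lay above and replicate 3 below the control range, as they did in Rpl10a, which had 54.8, 57.5 and 35.0 CPM in AclyM-KO and 48.8 to 52.5 CPM in control libraries. The standard error exceeded 0.2 log2 units in 6 of the 74 genes, and its median was 0.09, beside 0.11 over all genes tested.

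Levels of different genes were compared as CPM per kb of coding sequence, since proteins of this family differ in length. Among the 74 tested genes the mean over all libraries had a median of 197 CPM per kb, 13 genes exceeded 400 and 6 were below 30. The highest were Rpl41 (946 ± 42 in control and 735 ± 102 in AclyM-KO), the stalk gene Rplp1 (796 ± 18 and 813 ± 24), Rps3 (565 ± 3 and 529 ± 44), Rps14 (559 ± 27 and 526 ± 31) and Rps9 (574 ± 16 and 488 ± 22), all as SD with n = 3. Rpl41 has a coding sequence of only 75 bases, and reads on its untranslated ends raise this measure. The lowest tested genes were Rpl17 (2.17 ± 0.61 and 2.36 ± 1.10), Rpl21 (3.25 ± 0.63 and 2.23 ± 0.93), Rps27a (9.10 ± 0.16 and 9.97 ± 1.3), Rpl29 (18.9 ± 4.0 and 19.2 ± 2.8) and Rpl7a (28.5 ± 1.5 and 24.5 ± 3.9). Neither Rpl17 nor Rpl21 had more than 25 counts in a library.

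Levels were lower in genes whose coding sequence is also found elsewhere in the genome. The authors kept alignments above a mapping quality, a step that removes reads with several equal matches. Of the 79 genes with a coding sequence in GENCODE M21, 58 shared more than 75% of their 50-base stretches with another annotated locus, and 29 shared all of them. Over all 79 genes the sharing loci numbered 1097, counted for each gene on its own, of which 1072 were annotated as pseudogenes. The Spearman correlation of the percent shared with the level per coding kb was -0.43 over the 79 genes, and -0.60 over 76 genes without the paralogs Rpl10l, Rpl3l and Rpl39l (descriptions across genes of the same libraries). Of the 7 genes sharing less than 25%, the paralogs Rpl10l, Rpl3l and Rpl39l had at most 1.04 CPM per kb, and the other 4, Rps3, Rpl8 and Rpl4 among them, had 427 to 547. The 58 genes sharing 75% or more had 0.108 to 841, with a median of 144. Rpl41 and Rps29 shared all stretches and still ranked high. The part of read removal in these levels was not tested.

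**Figure D4:**
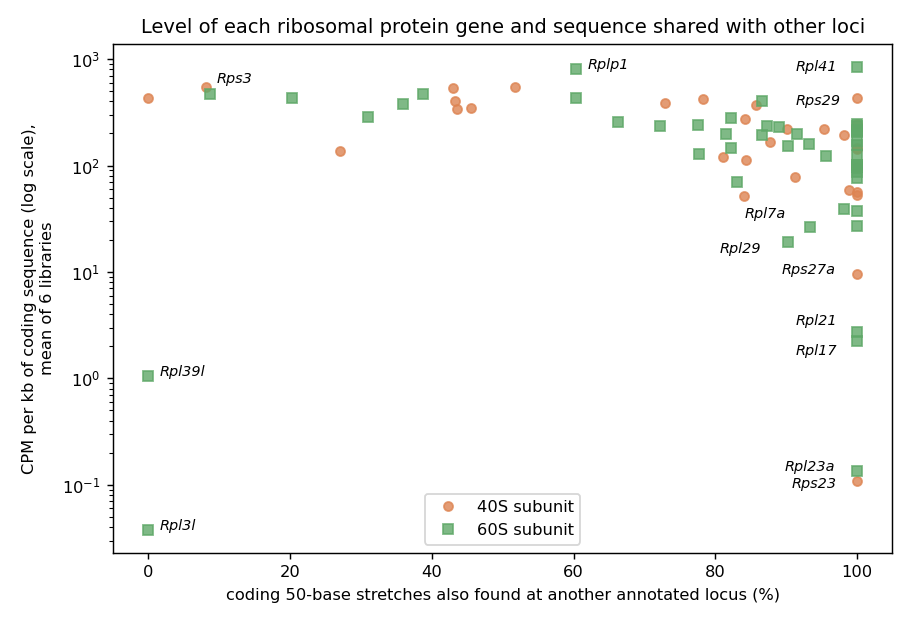
Mean level over all 6 libraries (CPM per kb of coding sequence, log scale) against the percent of 50-base stretches of the coding sequence that another annotated locus shares, for 40S (circles) and 60S (squares) genes with a level above 0. Genes sharing under 25% sit between 427 and 547 CPM per kb apart from the paralogs Rpl3l and Rpl39l, while at 100% sharing the levels run from 0.108 (Rps23) to 841 (Rpl41).

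The 6 genes that did not pass the filter on low counts differed in how far their sequence is unique. Rps23 and Rpl23a, universal proteins of the 40S and 60S subunit, had 5 and 6 counts over all libraries, and every 50-base stretch of their coding sequences was also found at other loci, 12 for Rps23 and 28 for Rpl23a. Rpl17, tested with 102 counts in all, shared every stretch with 51 other loci, and Rpl21, with 106 counts, with 82. Rpl3l and Rpl39l, paralogs of Rpl3 and Rpl39 known from muscle and testis, shared no stretch and had 4 and 14 counts in all. Rpl10l, a testis paralog of Rpl10, shared 12.48% of its stretches and had 0 counts in every library. Rpl32l had 35 counts in all. The parent genes Rpl3 and Rpl39 had log2 fold changes of -0.11 and -0.03, with adjusted p-values of 0.346 and 0.917 by edgeR. The median log2 fold change was -0.09 for the 12 tested genes with at most 50% shared, -0.06 for the 27 genes with every stretch shared and -0.05 for the 35 genes between. Without AclyM-KO replicate 2 these medians were -0.18, -0.15 and -0.10.

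Rps27l, a paralog of Rps27 and a p53 target, had 38.5, 34.8 and 42.4 CPM in control and 45.9, 56.5 and 38.4 CPM in AclyM-KO libraries. Replicate 3 of AclyM-KO lay within the control range, and the log2 fold change was 0.30 (adjusted p = 0.170 by edgeR), or 0.13 (adjusted p = 0.366) without replicate 2. Rps27 itself, left out because of its non-coding row, had 93.9, 92.4 and 82.6 CPM in control and 65.7, 86.2 and 68.9 CPM in AclyM-KO libraries. Its log2 fold change was -0.28 (adjusted p = 0.103), and -0.41 (adjusted p = 2.9e-04) without replicate 2. The rows of Rps27 and of Rps27rt had nearly equal total counts, 7012 and 6986, so their reads cannot be told apart here. Rps4l, also left out, had 94 counts in all. Between the paralogs Rpl22 and Rpl22l1 the estimates differed in sign, at -0.14 (adjusted p = 0.308) and 0.40 (adjusted p = 0.192). Without AclyM-KO replicate 2 the estimates were -0.23 (adjusted p = 0.0080) and 0.15 (adjusted p = 0.519).

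The summed level of the family differed between the genotypes by less than the spread among AclyM-KO libraries. The 80 genes took 0.812%, 0.820% and 0.828% of the counts in control and 0.780%, 0.875% and 0.772% in AclyM-KO libraries. The mean was 0.820% ± 0.008 in control and 0.809% ± 0.057 in AclyM-KO libraries (SD, n = 3), or 0.776% over AclyM-KO replicates 1 and 3. The difference of the means (AclyM-KO minus control) was -0.011 percentage points, and it was -0.044 without AclyM-KO replicate 2 but 0.0041 without replicate 1 and 0.0079 without replicate 3. The ratio of 40S to 60S counts was 0.671, 0.671 and 0.696 in control and 0.670, 0.676 and 0.668 in AclyM-KO libraries. The difference of the group means, -0.008, was smaller than the SD of 0.014 among control libraries.

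Ribosomal proteins and close paralogs whose symbols do not follow the rule were compared as well. Of 8 tested genes, 1 passed the threshold, with a lower level in AclyM-KO macrophages, and 2 passed without AclyM-KO replicate 2, both lower. Among all genes tested, 5.65% were lower with all libraries and 8.92% without AclyM-KO replicate 2. Fau, which encodes a fusion of a ubiquitin-like protein with the 40S protein eS30, had 95.3, 99.1 and 90.5 CPM in control and 83.0, 79.3 and 77.3 CPM in AclyM-KO libraries, with no overlap (log2 fold change -0.25, adjusted p = 0.0391 by edgeR). Rack1, the scaffold on the head of the 40S subunit, differed by -0.01 on the log2 scale (adjusted p = 0.957).

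Of 20 tested genes outside the family whose RNAs are known TOP RNAs, 2 rose, 1 fell and the median log2 fold change was 0.01. Among all genes tested, 6.7% rose and 5.65% fell. Without AclyM-KO replicate 2, 3 were higher, 4 lower and the median was -0.08, beside 9.56% higher and 8.92% lower among all genes then tested. Vim, an intermediate filament gene, rose by 0.54 (adjusted p = 0.0023 by edgeR) and Nap1l1, a histone chaperone gene, by 0.40 (adjusted p = 0.0389, or 0.24 with adjusted p = 0.0241 without replicate 2), while the initiation factor gene Eif4b fell by 0.36 (adjusted p = 0.0042). Eef1a1, the elongation factor that delivers aminoacyl-tRNA, had 1993, 1984 and 1989 CPM in control and 1679, 2033 and 1699 CPM in AclyM-KO libraries. AclyM-KO replicates 1 and 3 lay below and replicate 2 above the control range. The log2 fold change was -0.14 (adjusted p = 0.282), and -0.23 (adjusted p = 7.7e-04) without replicate 2. Eef2 and Npm1 had log2 fold changes of -0.07 and 0.07 (adjusted p of 0.629 and 0.750), and of 0.02 and -0.11 without replicate 2 (adjusted p of 0.778 and 0.186).

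Of 25 initiation factor genes, 3 rose and 1 fell, beside 6.7% that rose and 5.65% that fell among all genes tested. Eif5 rose by 0.51 (adjusted p = 0.0040 by edgeR), Eif1 by 0.48 (adjusted p = 0.0045) and Eif4g2 by 0.34 (adjusted p = 0.0163), and Eif4a2, a helicase gene, fell by 0.27 (adjusted p = 0.04996). Eif1 and Eif5 act together in the choice of the start codon. Of 44 ribosome assembly factors, 1 rose and 1 fell, beside the same 6.7% and 5.65% of all genes. These were Nop56 of the box C/D particle, by 0.48 (adjusted p = 0.0365, or 0.32 with adjusted p = 0.0428 without replicate 2), and Heatr1 of the small subunit processome, by -0.32 (adjusted p = 0.0483). Of 15 genes of RNA polymerase I and its factors, 0 passed the threshold in either direction by edgeR, DESeq2 or limma-voom, and 1 was lower and 0 higher at an unadjusted p under 0.05 by edgeR. The medians of the initiation factors, assembly factors and polymerase I genes were 0.07, 0.10 and 0.01, beside 0.00 for all genes, and 0.04, 0.01 and -0.04 without AclyM-KO replicate 2. Without it 3 initiation factors were higher and 3 lower, 3 assembly factors higher and 2 lower, and again 0 polymerase I genes passed. Among all genes then tested, 9.56% were higher and 8.92% lower. The assembly factors had a median deviation from control of 0.23 in AclyM-KO replicate 2 and of -0.01 in each of the others.

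Of 18 tested genes that control ribosomal protein synthesis, 2 passed the threshold, and both rose, beside 6.7% that rose and 5.65% that fell among all genes. The count was again 2 without AclyM-KO replicate 2, with a list median of -0.04. Among all genes then tested, 9.56% were higher and 8.92% lower. Besides Mdm2, Rheb, the activator of mTOR complex 1, had 63.3, 65.9 and 64.4 CPM in control and 72.7, 90.9 and 75.1 CPM in AclyM-KO libraries, with no overlap (log2 fold change 0.31, adjusted p = 0.0467 by edgeR). Replicate 2 was the highest, and without it the log2 fold change was 0.20 (adjusted p = 0.0364). Myc, a transcriptional activator of ribosome production, had 14.8, 19.9 and 15.1 CPM in control and 17.1, 24.7 and 22.9 CPM in AclyM-KO libraries, which overlapped (log2 fold change 0.39, adjusted p = 0.134). Larp1 and Eif4ebp1, through which mTOR complex 1 controls translation, had log2 fold changes of -0.09 and 0.07 (adjusted p of 0.411 and 0.695). Of 12 proliferation genes, 11 rose (median log2 fold change 0.59), and 10 rose without AclyM-KO replicate 2 (median 0.47). Bub1 and Ccnb1, mitotic genes, rose by 0.86 and 0.76, and Mcm5, a replication gene, by 0.58 (adjusted p of 0.0038, 0.0087 and 0.0018 by edgeR). Of the 11 proliferation genes, 6 and 7 passed without control replicate 1 or 2. Of the 12 genes of the other lists past the threshold, Vim, Eif4b, Eif1 and Eif5 passed whichever single library was left out, and the other 8 did not pass without any 1 of the control libraries. These lists were chosen by function with earlier results of these data known.

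**Figure D5:**
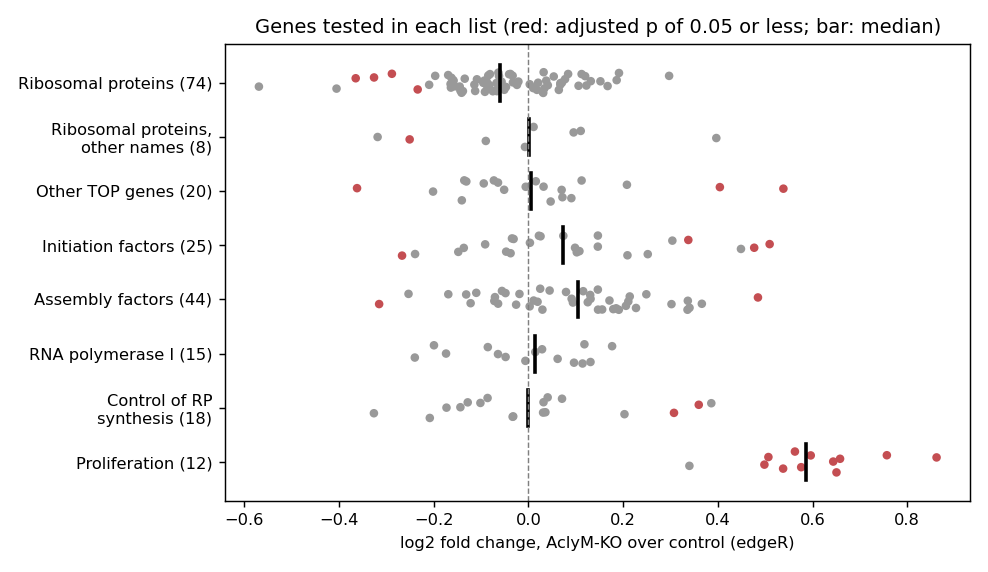
Log2 fold change (AclyM-KO over control, edgeR) of the tested genes of each list, with the number of genes in parentheses, the median as a black bar and genes past the threshold in red. Ribosomal protein genes cluster around -0.06, initiation and assembly factors around 0.07 and 0.10, and the proliferation genes around 0.59.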

How the data were processed

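Deposited values were raw counts per RefSeq transcript in 3 control and 3 AclyM-KO libraries of naive BMDMs. The authors prepared strand-specific mRNA libraries, aligned reads to mm10 with STAR 2.5.2b (CASAVA 1.8.2 is also named in the submitters' processing notes), filtered alignments on mapping quality and counted with HOMER at its default settings. The RefSeq release is not given in the sources used here, and how the counting used strand is not spelled out. The table has 12 columns, of which 6 belong to no sample described here and were not used.

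Of 35745 rows, 35440 received a symbol from RefSeq (GRCm38.p6) and 188 from GENCODE M21, and the row with the highest total over the 6 libraries represented each gene. Genes were tested with edgeR 4.0.16 in R 4.3.3 (TMM, filterByExpr, quasi-likelihood F-test, genotype as factor) with Benjamini-Hochberg adjustment over 11470 genes. Alternatives were DESeq2 1.42.0, limma 3.58.1 (voom with sample weights), other scalings, filters, row choices and thresholds, a replicate block and each library left out. The same code was tested on simulated counts with known changes. All simulated libraries had the same spread, so the simulation did not cover a library set apart like AclyM-KO replicate 2.

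Levels per length used the coding length in GENCODE M21 in place of the transcript length, since the deposited table gives no length and some annotated untranslated ends were far longer than expected for these genes. Shared stretches of 50 bases were searched in all GENCODE M21 transcripts, sense strand, outside the gene's own locus.

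Members and lists were chosen with earlier results of these data known. The text names members past the threshold, the 5 highest and 5 lowest per length, stalk, X-linked, p53-linked, paralog and reference genes, Rps6, members removed by the filter, and from each list up to 4 genes past the threshold per direction with fixed others. The labels' replicate numbers do not state a pairing. A few genes are not reported individually, but counts and medians include them.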

Additional observations from a re-analysis of the deposited data

How the results depend on the processing

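The 4 lower calls (Rpl13a, Rpl41 and Rps9 among them) were the same genes with DESeq2, RLE size factors, TMM factors without the members, no filter, at least 10 counts in every library, every transcript row and a transcript length offset. Total counts alone gave 2 (beside 4.43% of all genes, whose median it moved by 0.04), a threshold of 0.01 gave 1 (beside 1.87% of all genes), and limma-voom with sample weights gave 17 lower and 2 higher. Leaving out 1 library gave between 1 and 26 lower and between 0 and 2 higher ribosomal protein genes. It was 26 and 2 without AclyM-KO replicate 2, 1 and 0 without any 1 control library (beside 2.02% to 2.44% of all genes lower), and 2 and 0 without AclyM-KO replicate 1 (beside 6.65% lower and 7.54% higher of all genes) or 3 (3.66% and 5.41%). The cause was not tested. Thinning AclyM-KO replicate 2, chosen after seeing the data, gave 3 lower, beside 5.4% of all genes. The median log2 fold change of the members stayed negative under each alternative, from -0.13 to -0.004 when 1 library was left out. Over the comparison lists without the proliferation genes, the count past the threshold was 12 with all libraries by edgeR, 22 with limma-voom, 4 at a threshold of 0.01 and between 4 and 22 when 1 library was left out (4 without any 1 control library, 22 without AclyM-KO replicate 2). The difference in the ratio of 40S to 60S counts changed from -0.008 to 0.00707 over all transcript rows to 0.0154 without the 5 members of highest count and to 3.5e-04 without control replicate 3. The cause was not tested. Same-numbered libraries showed no pairing (correlations of their deviations from -0.05 to 0.11), although so few libraries cannot exclude one. With the replicate block, 862 genes rose and 721 fell, the same 4 members fell, the median was -0.07, and no other call on the members changed. Genes with few counts, such as Rpl17 and Rpl21, have intervals of more than 0.7 log2 units on either side.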

Other observations

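Several rows beside the 80 genes carry symbols of pseudogenes or retrogenes of them. Rpl34-ps1 had 6849 counts over all libraries, Rpl14-ps1 4664, Rplp2-ps1 2751, Rpl37rt 1136, Rps23rg1 229 and Rps19-ps3 123. Rps23rg1 thus had more counts than Rps23 with its 5, and it had 2.27, 2.24 and 2.35 CPM in control and 2.79, 3.63 and 1.74 CPM in AclyM-KO libraries, which overlapped (log2 fold change 0.31, adjusted p = 0.511 by edgeR). Rpl14-ps1 (-0.08), Rplp2-ps1 (-0.14), Rpl34-ps1 (-0.08), Rpl37rt (-0.28) and Rps19-ps3 (-0.09) also did not pass the threshold of 0.05 on the adjusted p. These rows were chosen after their values were seen. Whether their reads come from these loci or from the parent genes was not tested. Another transcript row of Rpl34 had 6859 counts, nearly equal to the 6849 of Rpl34-ps1, so the reads of these rows cannot be told apart here.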
